A study of Mus musculus with 3 samples.

Results

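The 10 genes Fhl1, Fhl2, Csrp3, Xirp1, Xirp2, Flnc, Nrap, Bag3, Ankrd23 and Des, which muscle cells are known to use at the Z-disc, the costamere and the intercalated disc or when they are stretched, were examined in 3 spatial transcriptomic sections of mouse heart. They were taken as a list of symbols that was chosen with earlier results of these data known. Counts of the 10 beside shares of all genes are therefore descriptions and not independent evidence. All 10 were found among the 32285 genes of the count tables, and all 10 passed the minimum of 100 UMIs in every comparison below. Each was measured in the whole section, in the spots where Ankrd1 was high or low, and as a correlation with Ankrd1 over spots. Ankrd1 encodes a cardiac ankyrin repeat protein that cardiomyocytes make under mechanical load and injury. It is not among the 10, and it served here to order the spots and as the partner in the correlations. Its own values are given in places.

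The study asked how pretreatment with SBP (Shexiang Baoxin Pill, MUSKARDIA in the labels), a traditional Chinese medicine, alters the heart after myocardial ischemia/reperfusion (I/R) injury. All mice were C57BL/6 and were gavaged for 7 days before the operation. The sham group received vehicle and had the needle passed without ligation. The I/R group received vehicle and the SBP group received SBP solution, and both then had the left anterior descending coronary artery (LAD) tied for 30 min and reopened for 24 h. Heart pieces were frozen, cut and placed on Visium slides, on which each barcoded spot covers a small region with several cells. There was 1 section per condition, so that treatment, animal, plane of cutting and library cannot be told apart, no difference between sections has a replicate check, and no test was made. Intervals in brackets are exact 95% intervals that cover counting error only.

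The Z-disc anchors actin filaments and titin at the ends of each sarcomere, and it also senses tension and damage. LIM domain proteins such as those of Fhl1, Fhl2 and Csrp3 bind there, the Xin repeat proteins and filamin C gather at strained or torn sarcomeres, and the chaperone partner Bag3 removes filamin that tension has unfolded. Desmin filaments tie neighbouring Z-discs to each other, to the membrane and to the intercalated disc, where force passes from cell to cell. In the mouse genome (GRCm38, GENCODE M21), Fhl1 lies on chrX:56731787-56793346, Xirp2 on chr2:67446002-67526614, Flnc on chr6:29433256-29461883 and Csrp3 on chr7:48830398-48848033. Fhl2 (chr1:43123074-43196984), Ankrd23 (chr1:36530188-36536883) and Des (chr1:75360329-75368579) share a chromosome. Bag3 is at chr7:128523616-128546981, Nrap at chr19:56320035-56390037 and Xirp1 at chr9:120013755-120023598.

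The sections kept 2234 spots (sham), 2082 spots (I/R) and 1960 spots (SBP), once 3, 1 and 2 spots that held under 200 genes had been removed. They held 25118258, 30238530 and 21631280 UMIs, with medians of 10645, 14672 and 10652.5 UMIs per spot. Genes of the mitochondrial genome made up 48.6%, 44.3% and 46.3% of UMIs. The 7 cardiomyocyte markers were all detected in every section, and together they held 38642, 28706 and 35198 UMIs per 1000000 UMIs of the section (CPM). Of 6 skeletal muscle markers, 1, 3 and 3 were at 0 and the sum stayed between 3.94 and 4.85 CPM. The barcodes name positions on a slide, and 1568 of them occurred in both the sham and the I/R section, 1565 in sham and SBP, and 1207 in I/R and SBP.

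A spot was called Ankrd1-above when it held more than 27.0 Ankrd1 UMIs per 10000 UMIs, the sham section's 95th percentile. This chose 112 sham spots (5.01%), 479 I/R spots (23.0%, 21.2 to 24.9) and 326 SBP spots (16.6%, 15.01 to 18.4), which held 7.35%, 27.0% and 18.1% of each section's UMIs. The Ankrd1-above spots were deeper than the others, with median UMIs of 14927 against 10501.5 (sham), 17348 against 14103 (I/R) and 11989.5 against 10453 (SBP). Their mitochondrial share was lower, 45.2% against 48.9%, 40.6% against 45.7% and 43.9% against 46.9%. Their summed cardiomyocyte markers were also lower, 27376 against 39535, 23119 against 30774 and 28271 against 36731 CPM. In a spot, fewer cells of a type and less RNA per cell cannot be told apart, and the part that these differences have in the results was not tested.

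Promoter sequence was at hand for 9 of the 10 genes, in 14 promoters of 300 bases (RefSeq, build GRCm38.p6), and Xirp1 had none. They were searched on both strands for 3 motifs of muscle and stretch genes and for the TATA box TATAAA. The CArG box, which serum response factor binds, occurred in 1.63% of all 32851 promoters and in 3 of the 14, from Fhl1 and Fhl2. The MEF2 site occurred in 3.19% of all and in 2 of the 14, from Fhl2 and Xirp2. The M-CAT core CATTCC, which TEAD factors bind, occurred in 14.7% of all and in 4 of the 14, from Ankrd23 and Flnc. The 2 Flnc promoters overlap, and their matches are the same CATTCC, within chr6:29433132-29433177, so that it is counted for both. TATAAA occurred in 13.6% of all and in 2 of the 14, from Fhl1 and Fhl2. A gene named here need not have the match in each of its promoters. A MEF2 match of Fhl2, not shown, overlaps a TATAAA on the other strand. A match describes letters and not a working site. The stretches below are shown because Fhl1, Xirp2 and Ankrd23 were higher where Ankrd1 was high in the I/R section and Fhl2 was lower there, and capitals mark the match.
Fhl1, CArG box, chrX:56779561-56779610, plus strand, at -102 from an internal start: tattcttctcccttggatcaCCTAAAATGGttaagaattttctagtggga
Fhl2, CArG box, chr1:43163963-43164012, minus strand, at -31 from an internal start: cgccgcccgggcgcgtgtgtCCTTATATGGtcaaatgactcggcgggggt
Xirp2, MEF2 site, chr2:67445908-67445957, plus strand, at -74 from the start: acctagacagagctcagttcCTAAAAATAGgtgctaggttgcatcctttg
Ankrd23, M-CAT core, chr1:36535834-36535879, minus strand, at -120 from an internal start: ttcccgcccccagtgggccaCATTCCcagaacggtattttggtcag

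In the whole I/R section, 6 of the 10 genes were higher than in sham by at least 1.5-fold (a log2 ratio of 0.58) and none was lower by as much. Among all 11150 genes with 100 UMIs or more in the pair of sections, 22.3% were higher and 2.88% lower by that fold. The 6 were Xirp2, Fhl1, Flnc, Des, Nrap and Csrp3, and their log2 ratios ran from 0.71 to 1.68. Fhl2 and Bag3 were lower, by less than that fold. The median log2 ratio of the 10 was 0.73, against 0.24 for all genes tested. TMM factors, which centre the ratios on the bulk of the genes, shifted every ratio of this comparison by -0.23, and 4 of the 10 (Xirp2, Fhl1, Flnc and Des) were then higher and 1, Fhl2, was lower. The shares of all genes given here and below are those without TMM factors and do not apply to counts made with them.

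Fhl1, a LIM domain protein that binds titin at the I-band and is known to respond to stretch, stood at 106 CPM (102 to 110) in the sham section, 336 CPM (330 to 343) after I/R and 235 CPM (229 to 242) with SBP. It was 3.19-fold higher in I/R than in sham, a log2 ratio of 1.67 (1.61 to 1.73), rank 201 of 11150. Its relative Fhl2, which carries metabolic enzymes to the sarcomere and restrains growth signals in cardiomyocytes, went the other way. Fhl2 stood at 1057 CPM (1044 to 1069) in the sham section, 720 CPM (710 to 729) after I/R and 734 CPM (722 to 745) with SBP, with an I/R over sham log2 ratio of -0.55 (-0.58 to -0.53), rank 10781. Csrp3 encodes muscle LIM protein, which is held at the Z-disc and is mutated in inherited cardiomyopathy. Its levels were 937 CPM (925 to 949) in the sham section, 1534 CPM (1520 to 1548) after I/R and 1159 CPM (1144 to 1173) with SBP, with a log2 ratio of 0.71 (0.69 to 0.73) for I/R over sham.

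The Xin repeat proteins bind and bundle actin, and they are found at intercalated discs and at damaged sarcomeres. The pair differed in size of response. Xirp2 stood at 146 CPM (142 to 151) in the sham section, 469 CPM (462 to 477) after I/R and 229 CPM (222 to 235) with SBP, and its I/R over sham log2 ratio of 1.68 (1.63 to 1.73), 3.20-fold, was the highest of the 10. Xirp1 stood at 86.3 CPM (82.7 to 90.02), 109 CPM (105 to 112) and 96.6 CPM (92.5 to 101), with a log2 ratio of 0.33 (0.25 to 0.41). The annotation places Cx3cr1, a macrophage gene with 351 UMIs over the 3 sections, across Xirp1 on the same strand, so that reads of the 2 could be confused there. Flnc encodes filamin C, the actin crosslinker that binds the Xin proteins. It stood at 151 CPM (146 to 155) in the sham section, 310 CPM (303 to 316) after I/R and 200 CPM (194 to 206) with SBP, with a log2 ratio of 1.04 (0.98 to 1.095), 2.06-fold.

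Nrap, a nebulin-related protein of the myotendinous junction and intercalated disc that helps new myofibrils assemble, stood at 101 CPM (97.0 to 105) in the sham section, 170 CPM (166 to 175) after I/R and 146 CPM (141 to 151) with SBP. Its log2 ratio was 0.75 (0.69 to 0.82). Des, which encodes the muscle intermediate filament desmin, stood at 759 CPM (749 to 770), 1407 CPM (1394 to 1421) and 1132 CPM (1117 to 1146), with a log2 ratio of 0.89 (0.86 to 0.92). Bag3, the partner of Hspa8 and the small heat shock proteins in clearing unfolded filamin, was the one gene besides Fhl2 with a ratio below 0. Its levels were 128 CPM (124 to 133), 113 CPM (109 to 117) and 119 CPM (114 to 123), with a log2 ratio of -0.18 (-0.25 to -0.11). Ankrd23 encodes another muscle ankyrin repeat protein, which binds titin beside Ankrd1. It stood at 62.7 CPM (59.7 to 65.9), 93.0 CPM (89.6 to 96.5) and 63.7 CPM (60.3 to 67.1), and its log2 ratio of 0.57 (0.48 to 0.66) lay just short of 1.5-fold.

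**Figure D1:**
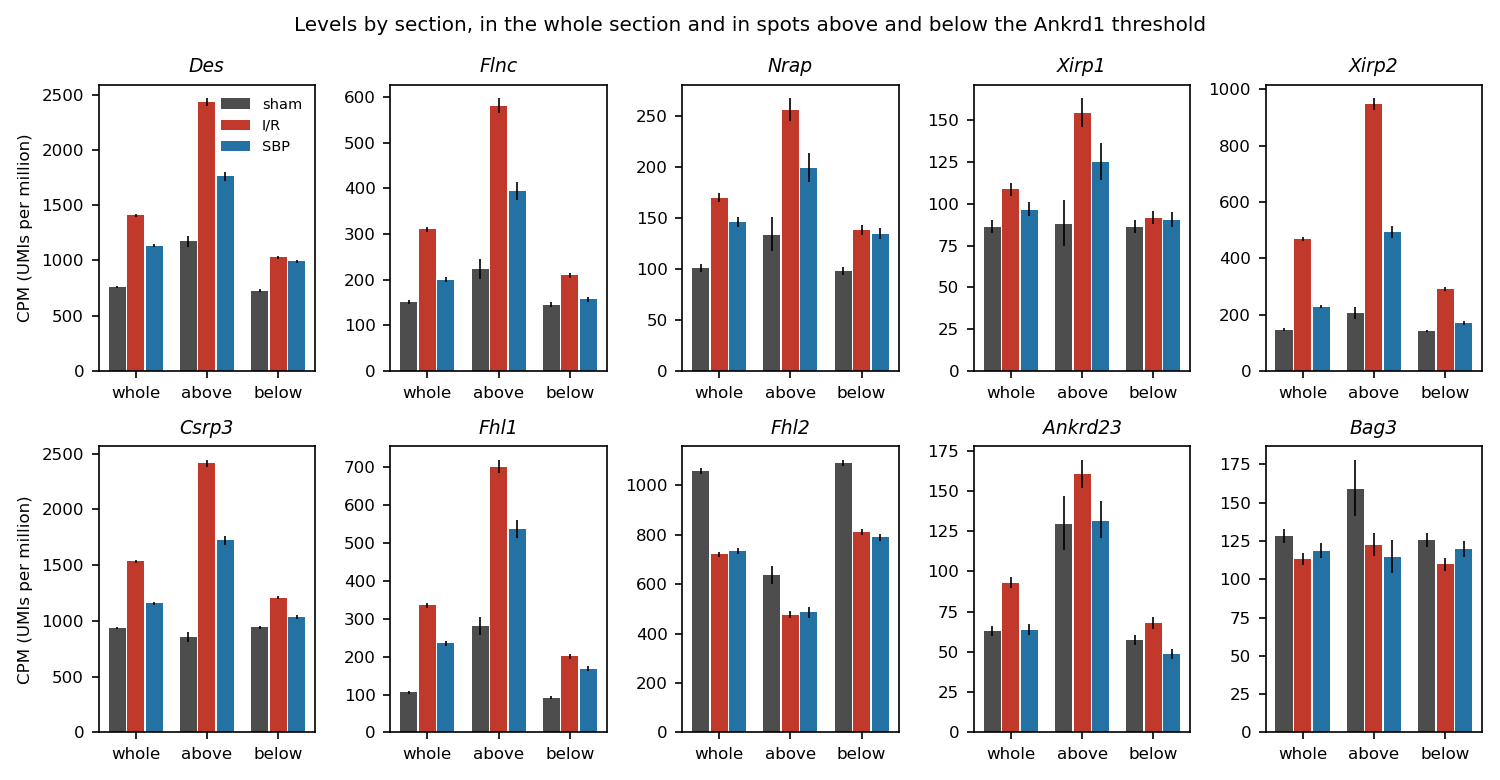
Levels of the 10 genes in CPM (y axis, from 0), in the whole section and in Ankrd1-above and Ankrd1-below spots, for sham (grey), I/R (red) and SBP (blue). Error bars are exact 95% Poisson intervals. In Ankrd1-above spots Xirp2 stood at 206 (sham), 948 (I/R) and 493 (SBP), whereas Fhl2 was lower above the threshold than below it in all 3 sections.

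Against I/R, the SBP section had log2 ratios below 0 for 8 of the 10 genes. The median of all genes tested was below 0 as well, at -0.16, and Fhl2, at 0.03, ranked 2932 of 11059 from the highest. Most genes thus lay below 0, and this count is not particular to the 10. Xirp2 was lower, with a log2 ratio of -1.04 (-1.09 to -0.99), and so was Flnc, at -0.63 (-0.69 to -0.58). These were the 2 of 10 past 1.5-fold, where 12.1% of all 11059 genes tested were lower and 1.41% higher by that fold. Xirp2 alone remained past it (-0.88) under TMM factors, which shifted the ratios of this comparison by 0.16. The other 8 were Ankrd23 (-0.55), Fhl1 (-0.52), Csrp3 (-0.40), Des (-0.31), Nrap (-0.22), Xirp1 (-0.17), Fhl2 (0.03) and Bag3 (0.07), and the intervals of the last 2 included 0. The median was -0.36 against -0.16 for all genes. Markers of 3 other cell types were also lower in SBP than in I/R, most of those tested by at least 1.5-fold. The 4 smooth muscle markers summed to 124 against 237 CPM and all 4 were past the fold, the 4 macrophage markers summed to 185 against 268 CPM with 3 past it, and the 3 neutrophil markers summed to 60.9 against 136 CPM, with both of those that had enough UMIs past it. In sham the sums were 317, 184 and 15.2 CPM. Endothelial and fibroblast sums were lower in SBP by less, at 154 against 183 CPM and 494 against 514 CPM. The cardiomyocyte sum went the other way, at 35198 CPM in SBP against 28706 CPM in I/R. None of these markers was at 0 in a whole section, and their part in the ratios of the 10 genes was not tested.

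Side by side with sham, which also serves in the comparison above, the SBP section was past 1.5-fold for 2 genes, where 4.20% of 10561 genes were higher by that fold. Fhl1 had a log2 ratio of 1.16 (1.09 to 1.23), rank 62, and Xirp2 had 0.64 (0.58 to 0.71). Des at 0.58 and Nrap at 0.54 fell short of the fold. Ankrd23, at 0.02 (-0.08 to 0.13), stood at nearly the same level in the whole SBP section as in sham. With the Ankrd1 bins described below weighted by the sham section's mix, its ratio was -0.31. Fhl2 was as low in SBP, at -0.53, as in I/R. With TMM factors, 1 gene was higher (Fhl1) and 1 lower (Fhl2, -0.60).

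**Figure D2:**
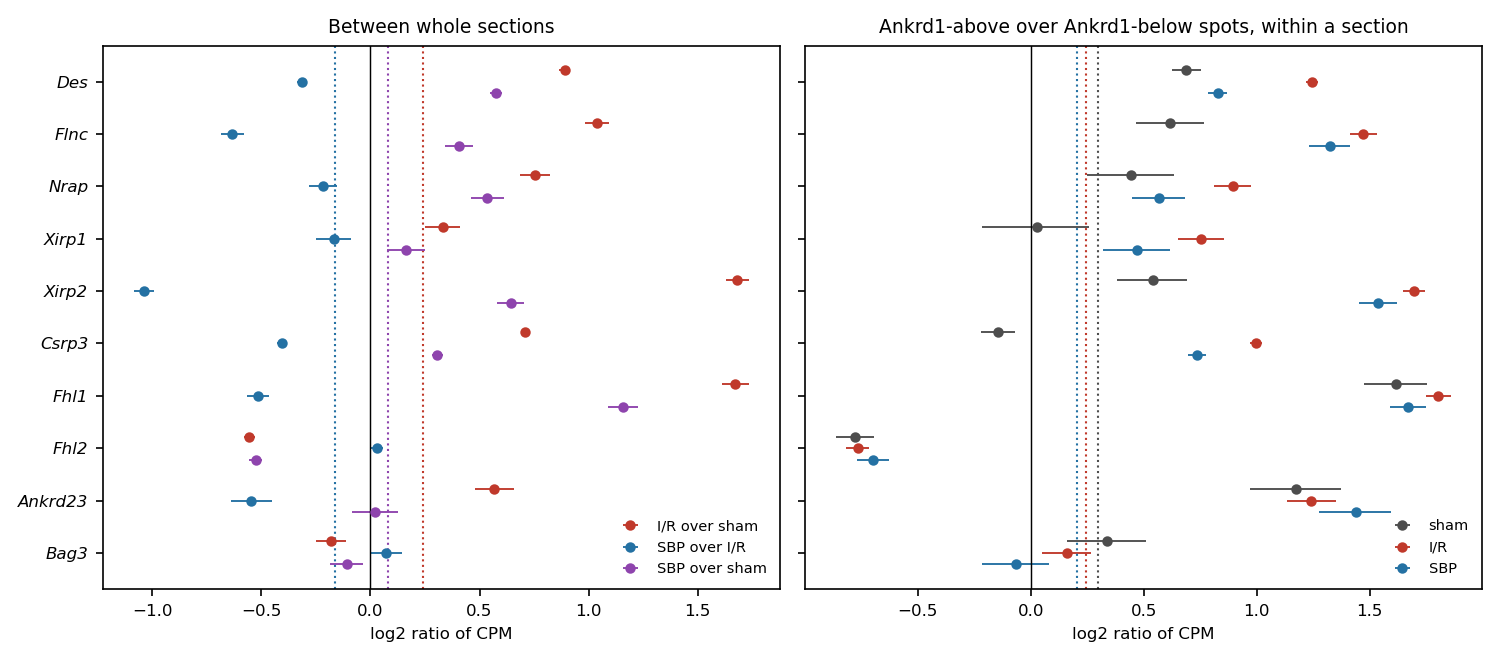
Log2 ratios of CPM (x axis) for the 10 genes, between whole sections (left) and between Ankrd1-above and Ankrd1-below spots of a section (right), with exact 95% intervals and dotted lines at the medians of all genes tested. Fhl1 and Xirp2 lie farthest right for I/R over sham, at 1.67 and 1.68, and Fhl2 lies left of 0 in every within-section comparison.

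Within the I/R section, 8 of the 10 genes were higher in Ankrd1-above than in Ankrd1-below spots by at least 1.5-fold, where 12.5% of 10090 genes were. Fhl1 had the largest log2 ratio, 1.80, from 201 CPM below to 702 CPM above the threshold, rank 12 of all genes. Xirp2 followed at 1.70 (292 to 948 CPM, rank 16), then Flnc at 1.47 (209 to 581 CPM, rank 25), Des at 1.25 (1027 to 2435 CPM, rank 55) and Ankrd23 at 1.24 (67.9 to 161 CPM, rank 56). Csrp3 rose from 1209 to 2412 CPM (0.997, 0.97 to 1.02), Nrap from 138 to 257 CPM (0.89) and Xirp1 from 91.6 to 154 CPM (0.75). Bag3 stood at 110 CPM below and 122 CPM above, a log2 ratio of 0.16.

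Fhl2 was the one gene of the set that was lower in Ankrd1-above spots of the I/R section, at 477 CPM against 810 CPM, a log2 ratio of -0.76 (-0.82 to -0.71). Only 3.16% of genes were lower there by 1.5-fold. It was lower by about as much in the sham section, at 636 CPM against 1090 CPM (-0.78, -0.86 to -0.69), where 4.64% of genes were. The SBP section gave 486 CPM against 789 CPM (-0.70, -0.77 to -0.63), where 3.95% of genes were. The 3 intervals overlapped. Over all spots the direction was thus the same with and without LAD ligation, in spots that also differed in depth, mitochondrial share and cardiomyocyte marker sums as given above. It did not hold among the I/R spots high in the injury genes described below, where the ratio was 0.19 (0.10 to 0.29).

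Among all genes, the sham section had the largest share higher above the threshold by 1.5-fold, 26.0% of 8989 genes. Of the 10, 4 were past the fold there, not far above that share. They were Fhl1 at 1.62 (91.7 to 281 CPM), Ankrd23 at 1.17 (57.4 to 130 CPM), Des at 0.69 (727 to 1172 CPM) and Flnc at 0.62 (145 to 222 CPM). TMM factors shifted the sham ratios by -0.34, and 2 genes (Fhl1 and Ankrd23) were then higher and 1 lower. Flnc lay between 0.28 and 0.77 over all alternatives. Xirp2 reached 0.54 (142 to 206 CPM), and Xirp1 was level at 0.03 (-0.21 to 0.26), with 86.2 and 87.8 CPM. Csrp3 stood at 944 CPM below and 855 CPM above, a log2 ratio of -0.14 (-0.22 to -0.07), opposite in sign to its ratio in the I/R section.

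In the SBP section 6 of the 10 were higher above the threshold, where 14.8% of 8713 genes were. They were Fhl1 at 1.67 (169 to 537 CPM, rank 16), Xirp2 at 1.54 (170 to 493 CPM), Ankrd23 at 1.44 (48.6 to 132 CPM), Flnc at 1.32 (157 to 393 CPM), Des at 0.83 (992 to 1761 CPM) and Csrp3 at 0.74 (1034 to 1724 CPM). Nrap, at 0.57, and Xirp1, at 0.47, fell short, and Bag3 had -0.07 (-0.22 to 0.08). The 10 had medians of 0.49, 1.12 and 0.78 in sham, I/R and SBP, beside 0.30, 0.24 and 0.20 for all genes tested. As a share of each transcript, Ankrd1-above spots of the I/R section, with 27.0% of all UMIs, held 56.4% of Fhl1 UMIs, 54.6% of Xirp2, 50.7% of Flnc, 42.5% of Csrp3 and 17.9% of Fhl2.

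Because the sections differ in how many spots lay above the threshold, the levels were also set side by side within one class of spots. In Ankrd1-above spots, where Ankrd1 itself differed by a log2 ratio of only 0.09, 7 of the 10 were higher in I/R than in sham by 1.5-fold, and 15.0% of 6982 genes were. Xirp2 had 2.20 (2.05 to 2.35), Csrp3 1.496 (1.42 to 1.57), Flnc 1.39, Fhl1 1.32, Des 1.06, Nrap 0.94 and Xirp1 0.82 (0.58 to 1.06). Ankrd23 had 0.31, Bag3 -0.38 and Fhl2 -0.42. Ankrd23, the relative of Ankrd1, was among the 3 genes that did not reach the fold here. Its ratio ran from 0.19 to 0.70 over the alternatives. It was 0.65 (0.26 to 1.07) in Ankrd1-above spots that were also high in the injury genes described below. In the other Ankrd1-above spots it was 0.07 (-0.18 to 0.33), and these intervals overlapped. The former rests on 56 Ankrd23 UMIs in 33 sham spots. From I/R to SBP in all Ankrd1-above spots, Xirp2 was the 1 gene lower by 1.5-fold, at -0.94 (-1.01 to -0.87), where 9.68% of 7584 genes were lower.

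In Ankrd1-below spots, 2 of the 10 were higher in I/R than in sham, Fhl1 at 1.13 and Xirp2 at 1.04, and 17.5% of 10647 genes were. TMM factors left the 2 and added Fhl2 as lower (-0.62). Flnc at 0.53, Des at 0.50, Nrap at 0.49 and Csrp3 at 0.36 were short of the fold. From I/R to SBP, Xirp2 at -0.78 was again the 1 gene past it, where 10.5% of 10459 genes were lower, and Fhl1 had -0.25 and Flnc -0.42. The Ankrd1-below spots were not alike in Ankrd1 itself. Its log2 ratio there was 0.47 (0.44 to 0.50) between I/R and sham and -0.11 (-0.14 to -0.08) between SBP and I/R. Its part in the ratios of these spots was not tested.

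The spots of every section were next placed in 6 bins of Ankrd1 per 10000 UMIs, with limits at the sham section's 25th, 50th, 75th, 95th and 99th percentiles. In I/R, 9 of the 10 genes, all but Fhl2, were higher at each of the 5 steps from the lowest to the highest bin, as 7.48% of 10089 genes were. Fhl1 went from 87.7 to 834 CPM, a 9.51-fold rise, and Xirp2 went from 122 to 1086 CPM, a log2 ratio of 3.16. Flnc went from 98.7 to 695 CPM (2.82), Ankrd23 from 33.8 to 193 CPM (2.51), Des from 667 to 2807 CPM (2.07) and Nrap from 96.3 to 284 CPM (1.56). Csrp3 went from 1008 to 2888 CPM (1.52) and Xirp1 from 77.2 to 169 CPM (1.13), whereas Bag3 went from 100.3 to 129 CPM (0.36), short of the fold. Fhl2 went down, from 966 to 485 CPM (-0.99).

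In sham 3 of the 10 were higher at each step, where 5.44% of 8988 genes were: Fhl1 (58.5 to 323 CPM, 2.46), Ankrd23 (36.7 to 152 CPM, 2.05) and Des (632 to 1413 CPM, 1.16). Xirp2 was higher at 4 of the 5 steps in sham, at 113, 133, 136, 187 and 229 CPM over the lower bins, and then stood at 142 CPM in the highest, where it had 70 UMIs (highest over lowest 0.33, -0.05 to 0.69). Csrp3 stood at 941 and 847 CPM in the end bins (-0.15, -0.30 to -0.01). The highest sham bin held 23 spots, against 179 in I/R and 114 in SBP. In SBP 8 of the 10, all but Fhl2 and Bag3, were higher at each step, where 6.42% of 8712 genes were. The ends were 78.6 and 612 CPM for Fhl1 (2.96), 110 and 628 CPM for Xirp2 (2.52), 23.9 and 161 CPM for Ankrd23 (2.75) and 932 and 2043 CPM for Csrp3 (1.13). Fhl2 went from 1152 to 566 CPM in sham and from 857 to 451 CPM in SBP. Over the same bins the summed cardiomyocyte markers went from 41520 to 27381 CPM (sham), 35449 to 23814 CPM (I/R) and 39690 to 28177 CPM (SBP), and the mitochondrial share from 50.1% to 44.0%, 51.7% to 40.9% and 50.4% to 43.9%. Their part in these slopes was not tested.

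**Figure D3:**
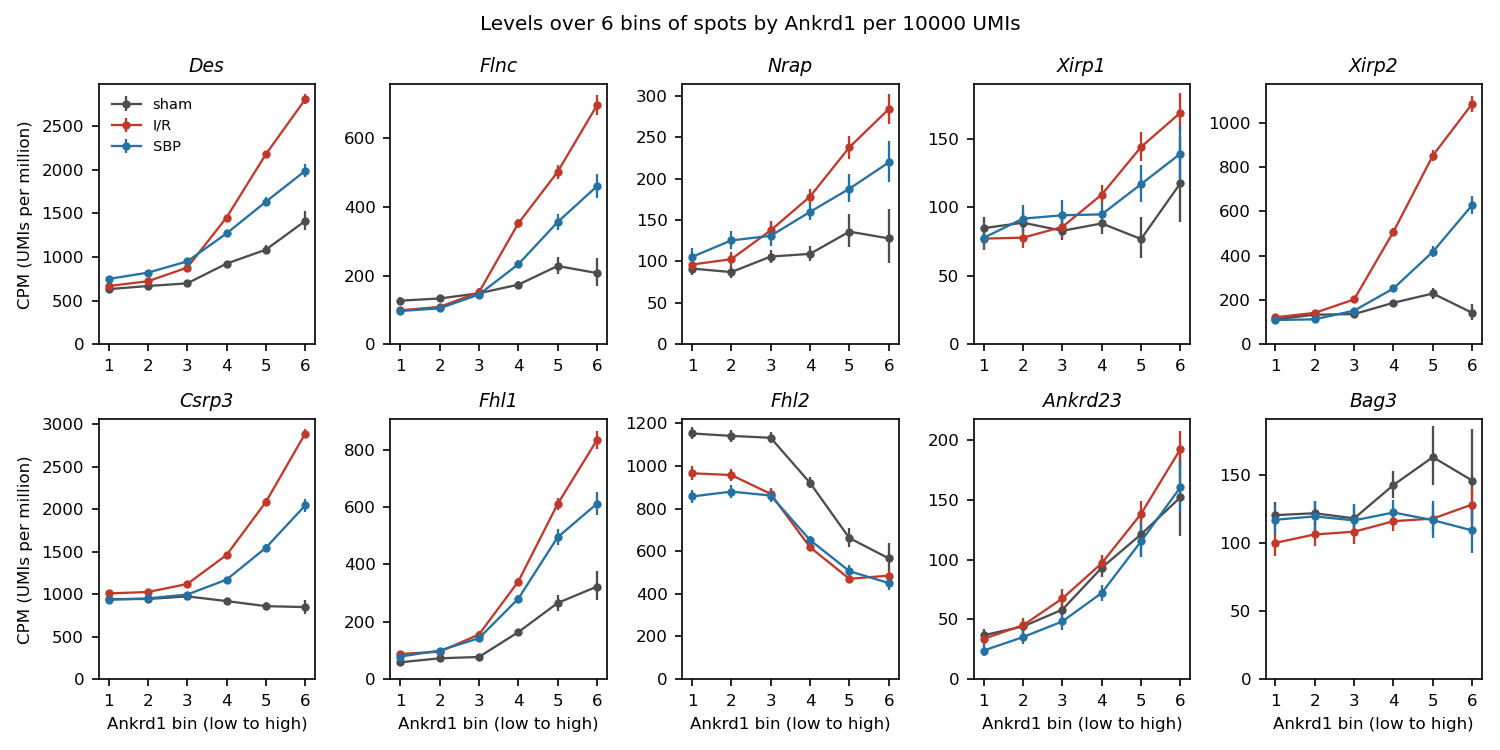
Levels in CPM (y axis, from 0) over 6 bins of spots ordered by Ankrd1 per 10000 UMIs (x axis, low to high), for sham (grey), I/R (red) and SBP (blue), with exact 95% Poisson intervals. In I/R, Xirp2 goes from 122 to 1086 and Csrp3 from 1008 to 2888, whereas in sham Xirp2 reaches 229 in the fifth bin and 142 in the highest and Csrp3 stays between 847 and 973, and Fhl2 goes down in all 3 sections.

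When the bins of I/R were weighted by the sham section's mix of Ankrd1 bins, the log2 ratios over sham moved toward 0 for all of the genes but Bag3, which went from -0.18 to -0.24. Fhl1 went from 1.67 to 0.95, Xirp2 from 1.68 to 0.98, Flnc from 1.04 to 0.42, Des from 0.89 to 0.43, Nrap from 0.75 to 0.44, Csrp3 from 0.71 to 0.39 and Ankrd23 from 0.57 to 0.10. Fhl2 went from -0.55 to -0.35. Fhl1 and Xirp2 still lay past 1.5-fold. For SBP over I/R, Xirp2 went from -1.04 to -0.69, Flnc from -0.63 to -0.33, Fhl1 from -0.52 to -0.21 and Des from -0.31 to -0.04.

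The correlation with Ankrd1 over spots uses the same Ankrd1 counts as the split and the bins, and it is not a separate check on them. In I/R, 8 of the 10 had a Spearman rho of at least 0.2 over 2082 spots, where 16.9% of 4615 genes with 500 UMIs or more had one. Des had 0.74 (rank 3), Fhl1 0.67 (rank 5), Flnc 0.60 (rank 10), Xirp2 0.57 (rank 17), Csrp3 0.54 (rank 38), Ankrd23 0.42, Nrap 0.39 and Xirp1 0.23. Bag3 had 0.05, and Fhl2 had -0.49, rank 4596 of 4615. Both values of a pair come from one library and share the spot's UMI total, so these values describe the sections and carry no p.

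In sham 3 of the 10 reached 0.2 over 2234 spots, where 4.44% of 3465 genes did: Des at 0.34 (rank 14), Fhl1 at 0.32 (rank 23) and Ankrd23 at 0.28 (rank 42). Flnc had 0.16, Xirp2 0.15, Csrp3 -0.02 and Fhl2 -0.24. In SBP 7 of the 10 reached 0.2 over 1960 spots, where 12.5% of 3210 genes did. Fhl1 had 0.59 (rank 8), Des 0.58 (rank 10), Flnc 0.46, Xirp2 0.39, Ankrd23 0.37, Csrp3 0.33 and Nrap 0.22, and Fhl2 had -0.40. Medians of the 10 were 0.13, 0.48 and 0.35 in sham, I/R and SBP, beside 0.05, 0.10 and 0.06 for all genes. In the I/R spots at or below the Ankrd1 threshold, Des still had 0.60, Fhl1 0.53, Flnc 0.49, Xirp2 0.47, Csrp3 0.35 and Fhl2 -0.43.

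**Figure D4:**
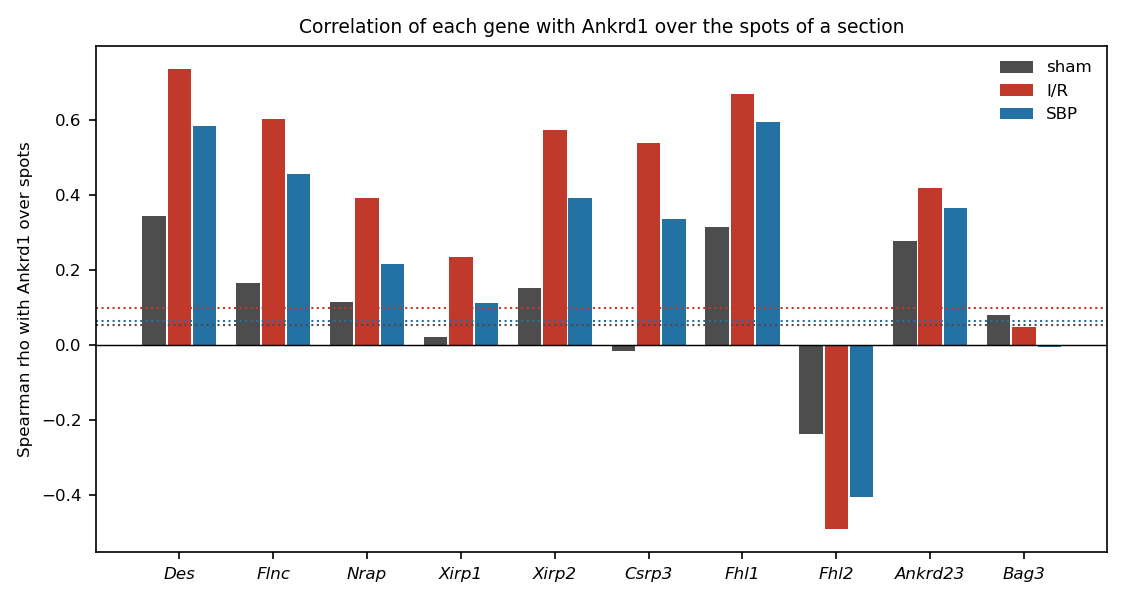
Spearman rho (y axis) of each of the 10 genes with Ankrd1 over the spots of the sham (grey), I/R (red) and SBP (blue) section, with dotted lines at the medians of all genes. Des and Fhl1 are highest in I/R, at 0.74 and 0.67, and Fhl2 is negative in all 3 sections.

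The 10 genes also varied with each other over spots. Over their 45 pairs rho had a median of 0.05, 0.22 and 0.12 in sham, I/R and SBP, in that order. The highest value in I/R was Fhl1 with Des at 0.65, followed by Xirp2 with Des at 0.64 and Flnc with Des at 0.63. The lowest was Fhl2 with Xirp2, at -0.54. Fhl1 with Des also had 0.47 in SBP and 0.23 in sham. Among 1616 genes outside the set with 1000 UMIs or more in each section, the one whose levels ran most like the sum of the 10 was Cryab, a small heat shock protein that chaperones desmin, with rho 0.22, 0.80 and 0.58 (mean 0.53). It was followed by Ankrd1 (mean 0.47), Nppb (0.44), Hspb1 (0.42) and Nppa (0.40). The sum is of UMIs, so that Csrp3, Des and Fhl2, which had the most UMIs in every section, weigh most in it.

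Spots of the I/R and SBP sections differ not only in Ankrd1 but also in wound genes. A second class was therefore set from the summed UMIs of 8 injury genes (Timp1, Spp1, Lgals3, Tnc, Fn1, Serpina3n, S100a8 and S100a9), above the sham section's 95th percentile of 9.51 per 10000 UMIs. It held 112 sham, 785 I/R and 391 SBP spots, of which 33, 331 and 168 were also Ankrd1-above. In I/R this left 148 spots above for Ankrd1 alone, 454 for the injury genes alone and 1149 for neither. The summed cardiomyocyte markers in these I/R classes were 20680 CPM (both), 27799 CPM (Ankrd1 alone), 14553 CPM (injury alone) and 34967 CPM (neither), with mitochondrial shares of 37.8%, 46.0%, 25.6% and 50.9%, and their part in the levels below was not tested.

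Xirp2 and Flnc stood highest in I/R spots that were above on both measures, and higher in spots of the injury class alone than in spots above for Ankrd1 alone. Xirp2 stood at 1173 CPM in both, 829 CPM in injury alone, 515 CPM in Ankrd1 alone and 153 CPM in neither. Flnc had 704, 517, 344 and 130 CPM in the same order. Fhl1, Csrp3, Des and Ankrd23 had the reverse order of the 2 middle classes. Fhl1 stood at 771 CPM in both, 419 CPM in injury alone, 569 CPM in Ankrd1 alone and 145 CPM in neither. Csrp3 had 2643, 1491, 1968 and 1136 CPM, and Des had 2652, 1657, 2018 and 864 CPM. Ankrd23 had 168 CPM in both, 85.0 CPM in injury alone, 145 CPM in Ankrd1 alone and 63.5 CPM in neither.

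Fhl2 was lowest in I/R spots of the injury class alone, at 336 CPM, and stood at 384 CPM in both, 654 CPM in Ankrd1 alone and 932 CPM in neither. Within the injury class of I/R its Ankrd1-above over Ankrd1-below log2 ratio was 0.19 (0.10 to 0.29), where Fhl1 had 0.88, Csrp3 0.83, Xirp2 0.50 and Flnc 0.45. Outside that class Fhl2 had -0.51 in I/R, the sign of its ratio over all spots. In the injury class of sham and SBP it had -0.08 (-0.29 to 0.13) and 0.01 (-0.13 to 0.15), and outside it -0.75 and -0.62. Within Ankrd1-above spots of I/R, the injury class over the rest gave 1.19 for Xirp2, 1.03 for Flnc, 0.44 for Fhl1, 0.43 for Csrp3, 0.39 for Des and -0.77 for Fhl2. Within Ankrd1-below spots it gave 2.43 for Xirp2, 1.99 for Flnc, 1.53 for Fhl1, 0.39 for Csrp3, 0.94 for Des and -1.47 for Fhl2. Of these, Csrp3 alone was no farther from 0 among spots of low Ankrd1, and Xirp1 likewise had 0.51 above and 0.40 below the threshold. Ankrd1 itself differed between the injury class and the rest by 1.14 in the Ankrd1-below spots and by 0.04 in the Ankrd1-above spots, and its part in these ratios was not tested.

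Within Ankrd1-above spots of SBP the injury class over the rest gave ratios nearer 0 than in I/R, at 0.45 for Xirp2, 0.14 for Flnc, -0.12 for Csrp3 and -0.01 for Fhl1. Xirp2 stood at 570 CPM in both, 408 CPM in injury alone, 417 CPM in Ankrd1 alone and 141 CPM in neither. In sham, Xirp2 stood at 262, 294, 184 and 136 CPM, and Fhl1 at 360, 258, 249 and 85.3 CPM.

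In spots above on neither measure, I/R over sham gave a log2 ratio of -0.13 (-0.20 to -0.05) for Flnc, -0.01 for Xirp1, 0.17 (0.10 to 0.25) for Xirp2, 0.26 for Csrp3, 0.27 for Des and 0.42 for Nrap, all short of 1.5-fold. Fhl1 was past the fold in these spots, at 0.76 (0.68 to 0.85), with 145 CPM in I/R against 85.3 CPM in sham, and it stood at 146 CPM in SBP. Fhl2 had -0.25. In all Ankrd1-below spots 17.5% of genes were higher by 1.5-fold, with a median of 0.19 for all genes and a TMM shift of -0.19. No share of all genes is given for the spots above on neither measure, so Fhl1 is not set apart from other genes there. Ankrd1 itself was higher in these spots of I/R than of sham, at 0.23 (0.20 to 0.27). Their summed cardiomyocyte markers stood at 34967 CPM (I/R) and 40140 CPM (sham), and the part of both in these ratios was not tested. In the same spots SBP over I/R gave -0.12 for Xirp2, 0.07 for Flnc, 0.01 for Fhl1, 0.10 for Des and -0.50 for Ankrd23. In spots above on both measures, SBP over I/R gave -1.04 for Xirp2, -0.77 for Flnc, -0.68 for Csrp3, -0.56 for Des and -0.53 for Fhl1. Xirp1 had -0.45, Nrap -0.43, Ankrd23 -0.32 and Bag3 -0.08 (-0.31 to 0.14), and Fhl2 went the other way at 0.17 (0.06 to 0.29). The median of all genes was -0.15 in all Ankrd1-above spots, and none is given for the spots above on both measures. These spots were not alike in SBP and I/R. Their summed cardiomyocyte markers were 25738 against 20680 CPM, and their mitochondrial shares 42.4% against 37.8%. In all Ankrd1-above spots the injury genes summed to 1212 CPM in SBP against 1812 CPM in I/R. The part of these differences in the ratios was not tested.

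**Figure D5:**
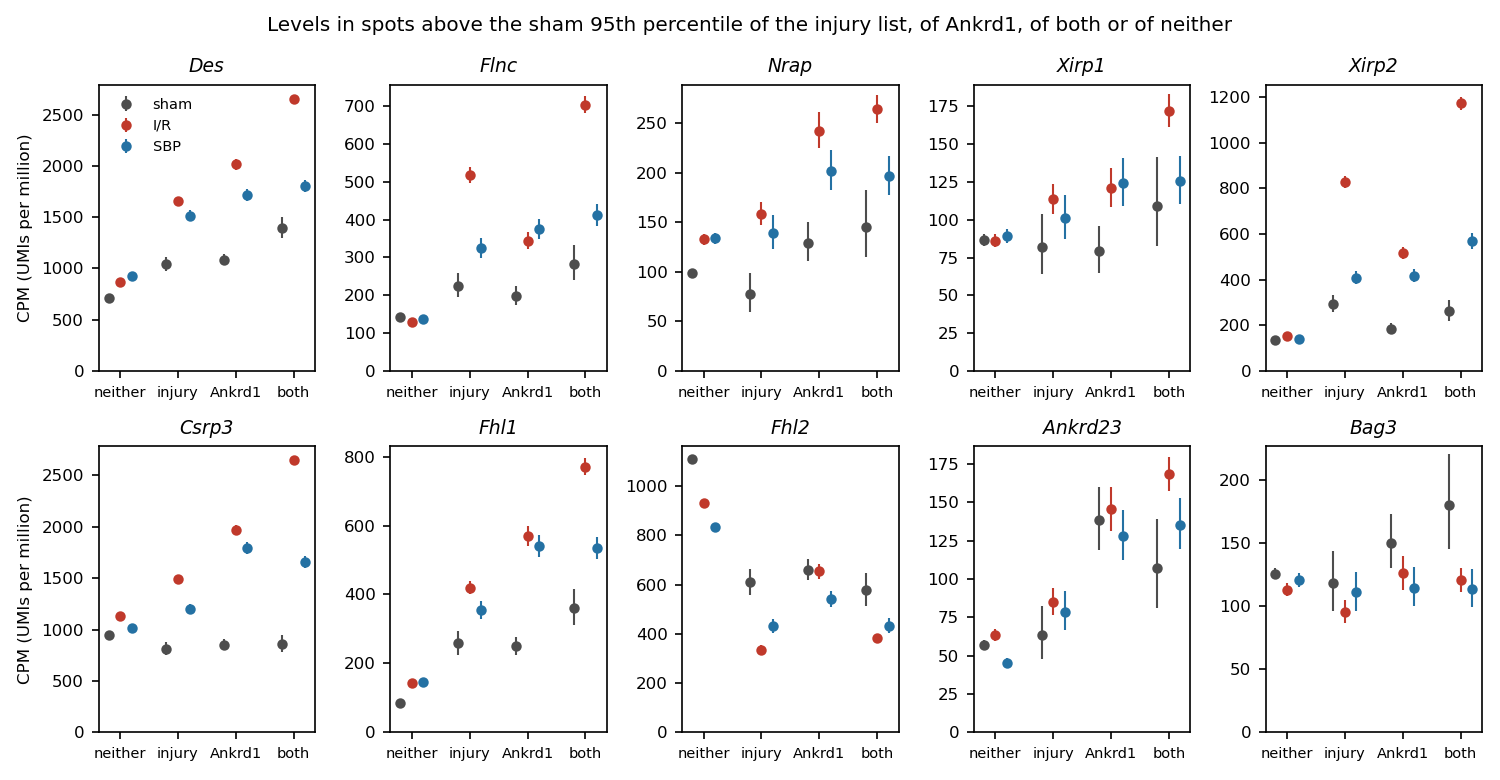
Levels in CPM (y axis, from 0) in spots above for neither measure, the injury genes alone, Ankrd1 alone or both (x axis), for sham (grey), I/R (red) and SBP (blue), with exact 95% Poisson intervals. Xirp2 in I/R stands at 153, 829, 515 and 1173 in this order and Fhl2 at 932, 336, 654 and 384.

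Other genes of the same structures were counted from lists. Of 13 further Z-disc genes, 1 was higher in I/R than in sham (Synpo2l, 1.03) and 1 lower (Tcap, which caps titin, -0.65), with a median of -0.29 beside 0.24 for all genes. Actn2, the actinin that crosslinks actin at the Z-disc, had Ankrd1-above over Ankrd1-below ratios of -0.03, 0.08 and -0.05 in sham, I/R and SBP, and Tcap had rho of -0.26, -0.61 and -0.57 with Ankrd1. Of 8 chaperones that work with Bag3, 3 were higher in I/R than in sham, Hspb1 (1.46), Cryab (0.79) and Hspa8 (0.68), and none was lower, with a median of 0.19 beside 0.24 for all genes, of which 22.3% were higher. Bag3 itself had -0.18. Within I/R, Hspb1 (1.66) and Cryab (1.25) were the 2 of the 8 higher in Ankrd1-above spots, where 12.5% of 10090 genes were.

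Of 12 costamere and desmin network genes, 3 were higher in I/R than in sham, Tln1 (0.80), Itga7 (0.72) and Ilk (0.63), a share near the 22.3% of all genes, with a median of 0.32 beside 0.24. Within I/R, 7 of the 10 of these with enough UMIs were higher in Ankrd1-above spots, where 12.5% of 10090 genes were. Itga7 was highest at 1.02, and the median was 0.61 beside 0.24 for all genes. Of 8 intercalated disc genes, none was higher and Dsp, at -0.59, was lower. None of 3 muscle ubiquitin ligases passed the fold. Of 5 ankyrin repeat and LIM relatives, which include Ankrd1 itself, 3 were higher: Ankrd2 (3.19), Csrp2 (0.98) and Ankrd1. From I/R to SBP, Ankrd2 (-1.76), Csrp2 (-0.91) and Hspb1 (-0.72) were lower and Tcap (0.74) was higher, and no costamere or intercalated disc gene passed the fold. The 7 cardiomyocyte markers had median log2 ratios of -0.36 between I/R and sham and -0.55 for Ankrd1-above over Ankrd1-below spots of I/R, below 0 where most of the 10 genes were above it.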

How the data were processed

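The authors deposited, for each section, a filtered Visium matrix of UMI counts per gene and spot. Per the labels these counts came from Space Ranger 1.3.0 and the mm10 build. The methods of the study name an earlier release and a human reference, and the gene identifiers in the files are mouse (32235 of 32285 found in GENCODE M21). Spots were kept with at least 200 detected genes. A level is the sum of a gene's UMIs in a section or class of spots, as a share of the summed UMIs of all genes there (CPM). Intervals are exact Poisson (levels), exact conditional binomial (ratios) and Clopper-Pearson (shares), at 95%. A gene entered a ratio with at least 100 UMIs in the 2 groups and a correlation with at least 500 UMIs in the section, and 1.5-fold or a Spearman rho of 0.2 was counted. With 1 section per condition there are no p-values.

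The 10 genes, the lists and the classes of spots were chosen with earlier results of these data known. The genes named are the 10, Ankrd1, list genes past 1.5-fold (at most 4 per list and comparison) and the 5 genes most like the sum of the 10. Actn2, Tcap's correlation and Bag3's partners beside it were named after their values were seen. Counts by 3' tags do not compare levels between genes. Alternatives changed the denominator, scaling, weight and filter of spots, filter on genes, split, depth (thinned to 6500 UMIs per spot), correlation and fold, and 2 subsets of spots for the correlation were added after seeing the data. The scripts were tested on simulated counts. Figures were drawn with matplotlib 3.10.9, and values were computed in Python 3.11.15 with pandas 2.3.3, numpy 2.4.6 and scipy 1.17.1.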

Additional observations from a re-analysis of the deposited data

Results flagged for a closer look

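Csrp3 drew attention because its direction over the spots differed between the sections. Its log2 ratio between Ankrd1-above and Ankrd1-below spots was -0.14 in sham, and 0.997 in I/R and 0.74 in SBP. The difference between the sections was not tested, since each condition has 1 section. The sham ratio rests on 1577 Csrp3 UMIs in 112 spots, and its size lies well under 1.5-fold.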

How the results depend on the processing

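No paired analysis was possible because there was a single section of every condition, and no difference here has a replicate. At 2-fold in place of 1.5-fold, the number of the 10 genes past the fold went from 6 to 3 for I/R over sham, from 2 to 1 for SBP over I/R and from 2 to 1 for SBP over sham. For Ankrd1-above over Ankrd1-below spots it went from 5 to 2 (sham), 9 to 5 (I/R) and 7 to 4 (SBP), and for SBP over I/R from 1 to 0 in Ankrd1-above and from 1 to 0 in Ankrd1-below spots. SBP over I/R gave 1 of 10 under UMIs without mitochondrial genes, TMM factors and median-of-ratios factors alike, and the sham spots gave 3 in place of 5 under both factors. In Ankrd1-above spots, SBP over I/R gave 2 genes with the sham 90th percentile, the 99th percentile or the injury genes as the split. In Ankrd1-below spots, I/R over sham gave 4 genes in place of 2 with equal weight for each spot, 5 with the 99th percentile, 4 with Ankrd1 per UMIs without mitochondrial genes and 1 with the injury genes, and SBP over I/R then gave 0 in place of 1. The causes were not tested. Shares of all genes were given for the main setting only, so the counts under these alternatives have none beside them. The counts at a rho of 0.2 stayed within 1.5 times of the values given under every alternative run. Of 1050 values of single genes under an alternative, 647 moved by less than their counting interval and 403 by more, and none of those past the fold turned its sign. In sham spots the log2 ratio of Xirp2 (0.54) ran from -0.04 with the 99th percentile to 1.02 with the injury genes as the split, and that of Ankrd23 (1.17) was 0.38 with the injury genes. UMI totals set the precision, and small classes of spots, such as the 23 sham spots of the highest bin, have wide intervals.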

Other observations

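At the depth of single spots these transcripts were often not seen. Fhl1 had no UMI in 990 of 2234 sham spots, 319 of 2082 I/R spots and 508 of 1960 SBP spots. Xirp2 had none in 606, 182 and 430 spots, and Ankrd23 in 1273, 800 and 1136 spots, in the same order. The I/R spots were also the deepest, so that these numbers do not compare levels between the sections.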
